A study of Mus musculus with 4 samples.

Results

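The circadian clock genes *Per1*, *Per2*, *Per3*, *Cry1*, *Dbp*, *Tef*, *Nr1d1*, *Nr1d2*, *Arntl* and *Npas2* were followed across all annotated cell types of the mouse hindbrain. They are 10 of the 32285 genes counted, taken by name. Their levels differed widely between cell types: *Npas2* was at 425 ± 31.9 CPM (SD, n = 4 libraries) in astrocytes and at 0.684 ± 0.452 CPM in oligodendrocytes, and *Dbp* and *Nr1d1* had their highest mean levels in mural cells. CPM are the RNA molecules of a gene per 1000000 molecules counted in the nuclei of a type in 1 library. Between the groups of mice, none of the 90 pairs of gene and cell type that could be tested passed the threshold of 0.05 for the adjusted p (edgeR quasi-likelihood test, Benjamini-Hochberg adjustment over all genes of a type).

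The molecular clock is a feedback loop of transcription that runs in most cells of the body. ARNTL (also called BMAL1) pairs with CLOCK or its relative NPAS2 and activates genes that carry E-boxes in their promoters, among them the *Per* and *Cry* genes, whose proteins then repress that activator. The nuclear receptors NR1D1 and NR1D2 (REV-ERBα and β) repress *Arntl* at ROR elements, and DBP and TEF are activators that bind D-boxes and carry the rhythm to output genes. Levels of these genes therefore depend on the time of day, and *Per1* and *Per2* are also induced acutely by stimuli such as glucocorticoids and cAMP.

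Single nuclei were prepared from the part of the hindbrain that holds the area postrema and the nucleus of the solitary tract, 1 h after clozapine N-oxide (CNO; 3 mg per kg) in mice 12 to 20 weeks old of both sexes. The study asked how AgRP and POMC neurons act together in the control of feeding and metabolism, and these libraries compare the hindbrain of mice in which both were driven, in opposite directions, with that of controls. The AgRP-Gq;POMC-Gi mice carried AgRP-IRES-Cre+/-, hM3DGq fl/-, POMC-Dre+/- and hM4DGi fl/-, so that the activating receptor hM3DGq was under Cre in AgRP cells and the inhibitory receptor hM4DGi under Dre in POMC cells. The control mice, labelled WT, also received CNO; by the study's methods, controls lacked both recombinases and carried the receptor alleles, and all lines were on a C57BL/6 background. Each group had 2 libraries. Per the labels a group held 2 mice and the samples of a condition were pooled, so that which mice entered which library, and whether the 2 libraries of a group came from separate animals, cannot be told from the labels, and the p-values measure only the spread between libraries. Food was withheld between CNO and dissection. The time of day at which these libraries were dissected was not given in the sources used here; a separate passage of the study's methods, on brain, fat and liver of male mice, places the CNO injection early in the light phase.

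The 4 libraries held 9723 to 10051 nuclei that passed the authors' quality filter, 39461 in all, with 48904976 to 53089402 UMIs (unique molecular identifiers, which count RNA molecules) per library. Of the 14 annotated types, 13 had at least 5 nuclei in every library and were tested, and 10 had at least 20. Of 70 marker genes, 5 for each type, 66 had their highest mean level in the type they mark. *Xist*, the RNA of the inactive X chromosome, was at 22.4 CPM in AgRP-Gq;POMC-Gi replicate 2 and at 471 to 729 CPM in the other 3 libraries. Replicate 2 thus stood apart, also from replicate 1 of its own group at 729 CPM. The labels do not give the sex of the mice in each library, and the part of sex in differences between libraries was not tested. The fold change without AgRP-Gq;POMC-Gi replicate 2 is given below with each of the pairs described for their small p. Any pair of libraries shared 19 to 36 cell barcodes, at most 0.370% of the smaller one. The median mitochondrial share of nuclei was 0.202 and 0.260% in control and 0.120 and 0.187% in AgRP-Gq;POMC-Gi libraries.

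Promoters were searched for the 3 kinds of element. RefSeq promoter entries on GRCm38.p6, each from 250 bases before to 50 bases after a start site, were found for 9 of the 10 genes and numbered 12, and no entry was found for *Per2*. The E-box CACGTG was in 4 of the 12, 1 of *Cry1*, 1 of *Per1* and both of *Tef*, against 7.15% of all 32851 promoters in the table. The D-box, searched as TTATGTAA or TTACGTAA on both strands, was present in the *Per3* promoter alone, at 2 places, against 1.06% of all promoters. The core of the ROR element, AGGTCA on either strand, was in 1 of the promoters of each of *Arntl*, *Nr1d2* and *Per1*, against 16.3% of all promoters. No match of any kind was found in the entries of *Dbp*, *Npas2* and *Nr1d1*. The stretches of 250 bases before the start site are shown for 4 genes that between them hold each kind of match, with the matches in capitals, on the strand of the gene. In *Per1* (chr11:69098699-69098948, plus strand) the E-box starts 166 bases before the start site, and the ROR core is written there as its reverse complement, TGACCT. In *Cry1* (chr10:85185055-85185304, minus strand) the E-box starts 60 bases before it. In *Per3* (chr4:151044666-151044915, minus strand) the D-boxes start 205 and 158 bases before it. In *Nr1d2* (chr14:18239107-18239356, minus strand) the ROR core starts 77 bases before it.
Per1: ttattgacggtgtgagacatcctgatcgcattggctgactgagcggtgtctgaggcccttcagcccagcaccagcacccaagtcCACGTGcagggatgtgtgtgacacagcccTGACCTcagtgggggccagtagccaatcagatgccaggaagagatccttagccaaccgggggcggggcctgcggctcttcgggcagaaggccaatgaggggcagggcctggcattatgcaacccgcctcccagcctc
Cry1: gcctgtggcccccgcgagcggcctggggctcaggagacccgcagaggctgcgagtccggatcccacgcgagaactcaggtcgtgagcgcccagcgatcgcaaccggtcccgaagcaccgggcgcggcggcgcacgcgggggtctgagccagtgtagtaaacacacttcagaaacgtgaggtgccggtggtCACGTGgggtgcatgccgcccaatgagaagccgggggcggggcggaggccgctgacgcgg
Per3: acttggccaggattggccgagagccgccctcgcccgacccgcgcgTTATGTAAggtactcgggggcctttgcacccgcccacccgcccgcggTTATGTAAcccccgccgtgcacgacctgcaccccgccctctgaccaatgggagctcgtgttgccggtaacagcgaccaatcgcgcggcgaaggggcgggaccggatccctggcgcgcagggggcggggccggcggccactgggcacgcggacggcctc
Nr1d2: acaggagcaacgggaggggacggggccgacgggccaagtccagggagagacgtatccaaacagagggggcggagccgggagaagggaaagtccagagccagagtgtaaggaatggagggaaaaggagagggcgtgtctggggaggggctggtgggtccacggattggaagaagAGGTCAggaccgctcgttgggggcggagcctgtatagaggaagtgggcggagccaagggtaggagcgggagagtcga
A match of letters is a description and not a binding site, and the levels below were not related to these motifs.

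The activator genes were spread very differently over the types. *Arntl* (chromosome 7, 113207465 to 113314126, plus strand in the GENCODE annotation of GRCm38), the main partner of CLOCK and NPAS2, had UMIs in 13 of the 14 types. Among the 10 types with at least 20 nuclei per library its highest means were in endothelial cells at 81.2 ± 39.7 CPM (SD, n = 4 libraries, both groups together) and in fibroblasts at 78.6 ± 34.0 CPM, and lowest in oligodendrocytes at 28.4 ± 3.32 CPM. Astrocytes stood at 78.0 ± 10.8 CPM and neurons at 43.9 ± 0.976 CPM. The library values of neighbouring types in this order overlapped except between neurons and OPC (oligodendrocyte precursor cells), which followed at 30.8 ± 10.2 CPM, so that the first place is not distinguishable from those after it. Control endothelial libraries averaged 48.8 CPM, those of AgRP-Gq;POMC-Gi mice 114 CPM, and among control libraries astrocytes were first at 70.9 CPM. Without AgRP-Gq;POMC-Gi replicate 1 fibroblasts came first, and without replicate 2 astrocytes.

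*Npas2* (chromosome 1, 39193731 to 39363236, plus strand), which can take the place of CLOCK, had its highest level in astrocytes. Its 4 libraries there read 450 and 379 CPM in control and 427 and 444 CPM in AgRP-Gq;POMC-Gi mice. Every one of these values lay above the highest value in any other of the 10 types, which was 287 CPM in Tanycyte-like cells. These cells, which resemble the glia that line the ventricle floor, were second at 162 ± 84.5 CPM. Fibroblasts followed at 110 ± 60.2 CPM and mural cells, the pericytes and smooth muscle cells of vessels, at 58.2 ± 16.5 CPM. Neurons, at 18.6 ± 1.59 CPM, held 23.7% of all *Npas2* UMIs because they hold most of the RNA. OPC were at 10.7 ± 6.18 CPM, Tmem119.Immune cells, which express microglial markers, at 4.29 ± 7.35 CPM, and oligodendrocytes at 0.684 ± 0.452 CPM. The oligodendrocyte level rests on 32 UMIs in 16816 nuclei, so that no ratio to it is given. For the other 9 genes the ratio of the highest to the lowest mean was between 2.85 (*Arntl*) and 22.0 (*Nr1d1*).

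**Figure D1:**
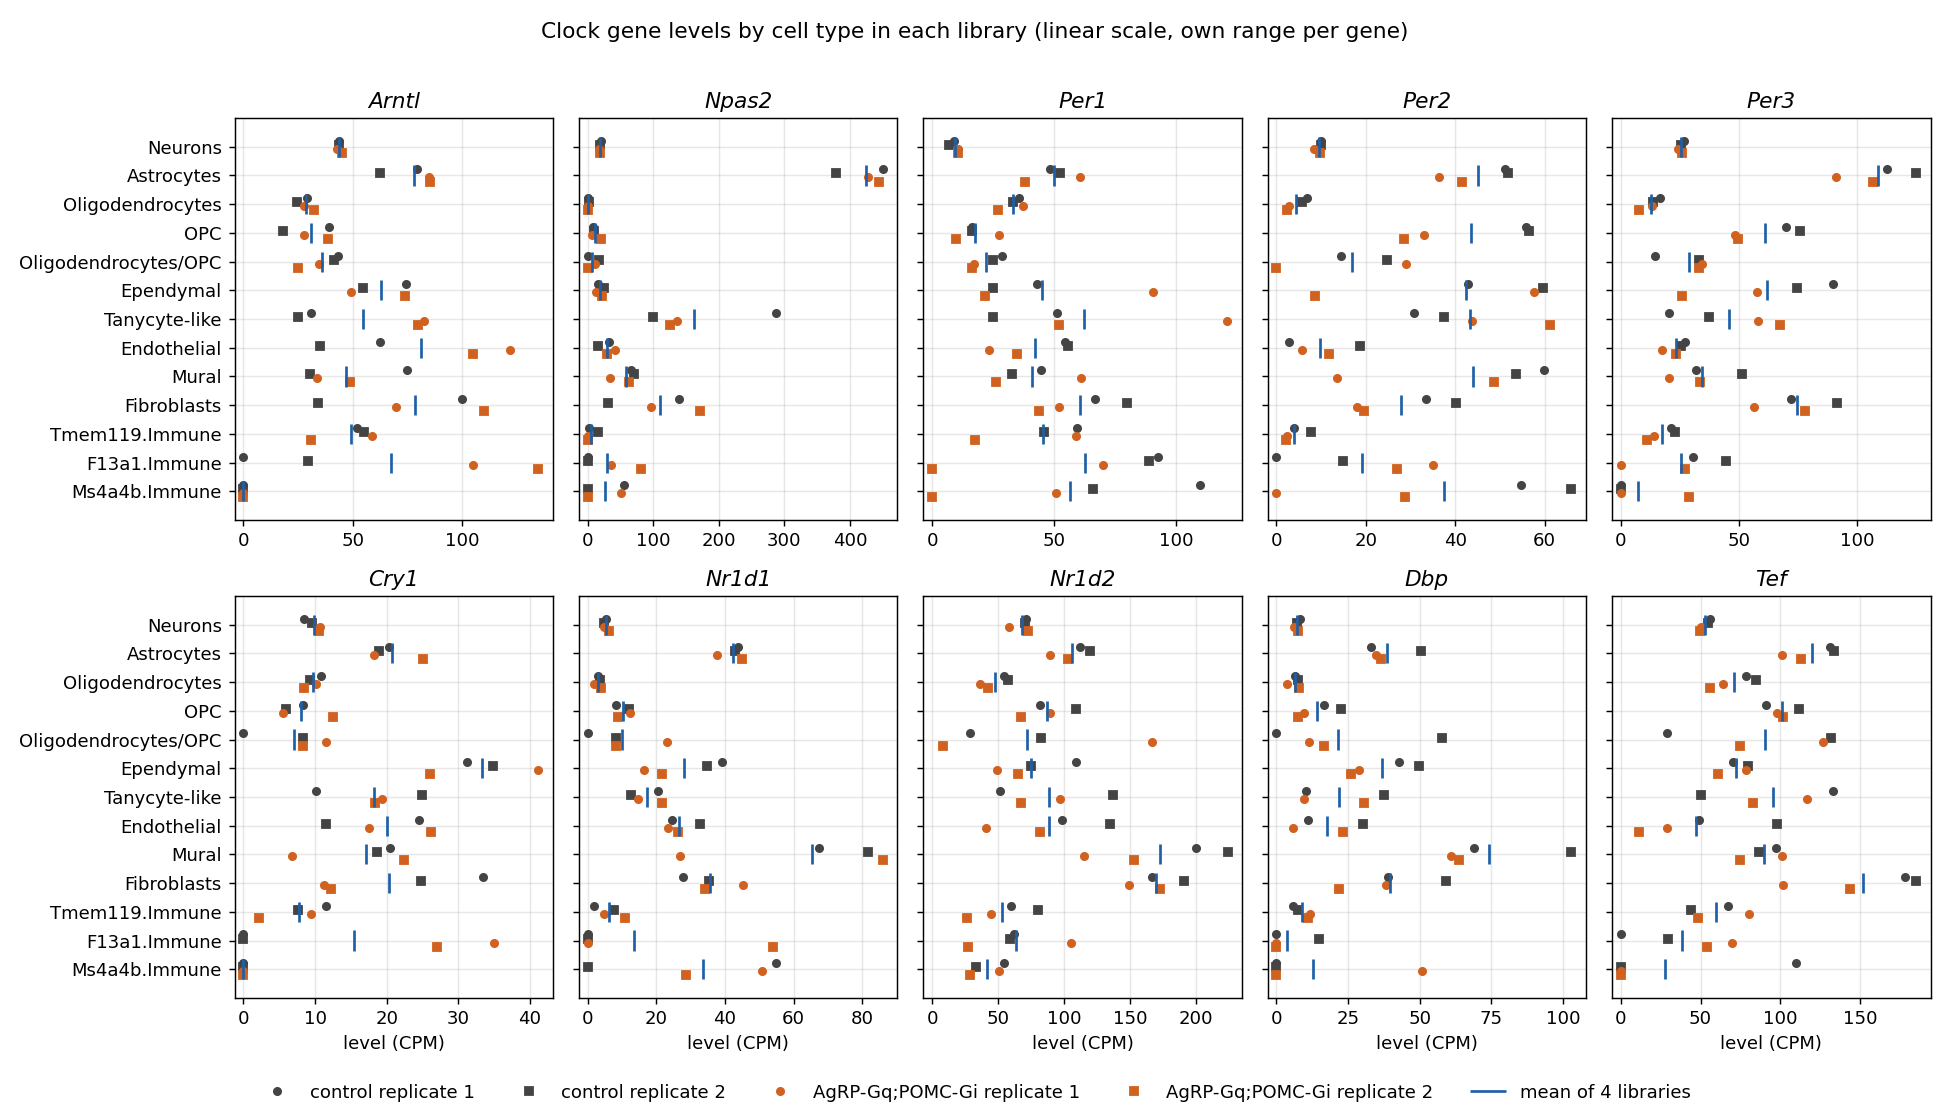
Level of each clock gene in CPM (x axis, linear, with its own range for each gene) by cell type (y axis); each point is 1 library, grey for control and orange for AgRP-Gq;POMC-Gi, and the blue bar is the mean of the 4 libraries. Choroid plexus is left out because 2 libraries held 2 and 6 of its nuclei. *Npas2* in astrocytes, at 379 to 450 CPM, lies apart from every other type. F13a1.Immune and Ms4a4b.Immune hold 88 and 61 nuclei.

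The repressor genes of the Period family did not share 1 order of types. *Per1* (chromosome 11, 69095217 to 69109960, plus strand) was low in neurons, at 9.26 ± 1.63 CPM, and in OPC, at 17.6 ± 7.30 CPM. It was at 62.4 ± 41.3 CPM in Tanycyte-like cells, 60.7 ± 16.0 CPM in fibroblasts and 49.9 ± 9.27 CPM in astrocytes, values that overlapped between libraries. Without AgRP-Gq;POMC-Gi replicate 1, which read 121 CPM in Tanycyte-like cells, and also without replicate 2, fibroblasts were highest. Oligodendrocytes and Tmem119.Immune cells, with 33.2 ± 4.47 and 45.4 ± 19.7 CPM, were also above neurons in every library for *Per1*.

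*Per2* (chromosome 1, 91415982 to 91459324, minus strand) had similar means in several types. Astrocytes, mural cells, OPC, Tanycyte-like and ependymal cells were all between 42.3 and 45.2 CPM on average, and which of them came first changed when any 1 library was left out. Fibroblasts followed at 27.8 ± 10.7 CPM. Endothelial cells, with libraries from 2.73 to 18.6 CPM, neurons at 9.48 ± 0.757, oligodendrocytes at 4.41 ± 2.20 and Tmem119.Immune cells at 4.00 ± 2.52 CPM had the lowest means, although 1 ependymal library (8.69 CPM), 1 mural library (13.5 CPM) and 1 fibroblast library (18.1 CPM) lay within the endothelial range. OPC and oligodendrocytes, which belong to 1 lineage, did not overlap, with OPC libraries from 28.6 to 56.6 CPM and oligodendrocyte libraries from 2.26 to 6.83 CPM. Neuron libraries, from 8.35 to 9.88 CPM, also lay above those of oligodendrocytes.

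*Per3* (chromosome 4, 151003652 to 151044665, minus strand) had its highest mean in astrocytes, at 109 ± 13.9 CPM. The lowest astrocyte library, at 91.4 CPM, lay just below the highest fibroblast library, at 91.6 CPM. Fibroblasts at 74.6 ± 14.6, ependymal cells at 62.0 ± 27.3 and OPC at 61.1 ± 14.1 CPM came next, and oligodendrocytes were lowest at 12.9 ± 3.72 CPM. The annotation has *Camta1* overlapping *Per3* on the same strand, and how reads shared by both were counted is not given in the sources used here. *Cry1* (chromosome 10, 85131700 to 85185064, minus strand), the cryptochrome of the list, was highest in ependymal cells, the ciliated cells of the ventricle wall. Its libraries there read 31.2 and 34.8 CPM in control and 41.2 and 26.1 CPM in AgRP-Gq;POMC-Gi mice, all above the 18.2 to 25.1 CPM of astrocytes, the next type by mean. Single libraries of fibroblasts (33.4 CPM) and endothelial cells (26.2 CPM) reached into the ependymal range. These ependymal values rest on 31 UMIs in all. Tmem119.Immune cells were lowest for *Cry1*, at 7.69 ± 4.00 CPM from 15 UMIs.

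Both nuclear receptor genes had their 3 highest means among the 10 types in mural cells, fibroblasts and astrocytes. *Nr1d1* (chromosome 11, 98767932 to 98775333, minus strand) was at 65.5 ± 26.9 CPM in mural cells, 42.3 ± 3.24 in astrocytes and 35.6 ± 7.16 CPM in fibroblasts. The mural libraries, from 27.0 to 86.0 CPM, overlapped with those of both others. Ependymal cells followed at 28.0 ± 10.7 CPM and overlapped with fibroblasts and with the next 2 types, endothelial cells at 26.7 ± 4.12 and Tanycyte-like cells at 17.3 ± 4.40 CPM. Endothelial cells, Tanycyte-like cells and OPC, the last at 10.3 ± 2.14 CPM, did not overlap with each other in any library. Neurons were at 5.19 ± 0.650 and oligodendrocytes at 2.98 ± 0.950 CPM, again without overlap. *Nr1d2* (chromosome 14, 18204054 to 18239127, minus strand) was at 173 ± 48.6 CPM in mural cells and 170 ± 17.3 CPM in fibroblasts, with overlapping libraries, and fibroblasts were first after thinning, with log-normalized values and without either control library. The fibroblast libraries, at 149 to 191 CPM, were all above the astrocyte libraries, at 89.3 to 120 CPM. Endothelial cells, at 88.8 ± 39.0 CPM, were level with Tanycyte-like cells, at 88.3 ± 37.9 CPM. *Nr1d2* was lowest in oligodendrocytes, at 47.6 ± 9.83 CPM, and neurons were at 68.1 ± 6.52 CPM, so that its range between types was narrow beside that of *Nr1d1*.

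The output genes differed from each other as well. *Dbp* (chromosome 7, 45705088 to 45710203, plus strand) read 69.1 and 103 CPM in mural cells of control and 60.9 and 63.6 CPM in those of AgRP-Gq;POMC-Gi mice, every library above those of fibroblasts, the next type at 39.6 ± 15.2 CPM. Astrocytes at 38.6 ± 7.98 and ependymal cells at 36.9 ± 11.3 CPM overlapped with fibroblasts. Neurons at 7.25 ± 0.811 and oligodendrocytes at 6.37 ± 1.94 CPM were lowest. *Tef* (chromosome 15, 81802421 to 81826863, plus strand) was spread most evenly after *Arntl*, from 152 ± 38.2 CPM in fibroblasts and 120 ± 15.6 in astrocytes to 52.6 ± 3.32 CPM in neurons and 46.9 ± 37.2 in endothelial cells. Genes on the other strand overlap *Dbp* (*Sphk2*), *Tef* (*Gm17597*), *Nr1d1* (*Thra*) and *Arntl* (*Gm45355*), and whether the counting used strand is not given in the sources used here.

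The 4 types with fewer than 20 nuclei in some library gave levels with little behind them. Choroid plexus, the epithelium that makes cerebrospinal fluid, had 436 nuclei in control replicate 2 and 329 in AgRP-Gq;POMC-Gi replicate 2 but 2 and 6 in the others. In the first pair of libraries, *Nr1d2* was at 144 and 86.4 CPM, *Tef* at 64.8 and 50.6, *Npas2* at 41.7 and 76.2 and *Per1* at 47.9 and 23.0 CPM. *Cry1* was at 10.8 and 12.2 CPM in them. In F13a1.Immune cells (88 nuclei), which express markers of macrophages at brain borders, *Per1* had 11 UMIs, *Arntl* and *Nr1d2* 10 each, and *Dbp* 1. In Ms4a4b.Immune cells (61 nuclei), which express markers of T lymphocytes, *Arntl* and *Cry1* had no UMI in any of the 61 nuclei, which allows a share of nuclei with a UMI of up to 4.92% (3 of 61) at their median depth of 1472 UMIs and sets no limit on expression. The Oligodendrocytes/OPC type (123 nuclei) had 49 UMIs of *Tef* and 42 of *Nr1d2*, and between 4 and 17 of each other gene.

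Shares of nuclei were compared after each nucleus was thinned to 800 UMIs, the fewest that any kept nucleus had, since median depth ran from 1460 UMIs in endothelial cells to 8704 in neurons. An *Npas2* UMI was found in 26.1% of thinned astrocytes (exact 95% interval 24.8 to 27.5%) and in 65.7% at full depth. In oligodendrocytes, with a median depth of 2460 UMIs against 3376 in astrocytes, the shares were 0.0595% (0.0285 to 0.109%) and 0.161%. The second was the lowest of the 10 types at full depth, and whether it is background was not tested. After thinning, Tmem119.Immune cells had 0 of 969 nuclei (0 to 0.380%). That interval contains the one of oligodendrocytes, so that these types cannot be ordered after thinning. The intervals cover counting error only. *Nr1d2* was found in 13.9% (11.6 to 16.5%) of thinned fibroblasts and in 12.4% (10.2 to 14.9%) of mural cells, with overlapping intervals. *Tef* reached 10.1% (8.15 to 12.4%) in fibroblasts and 9.00% (8.17 to 9.89%) in astrocytes. At full depth neurons had the largest shares for *Nr1d2* (44.1%), *Tef* (36.8%) and *Arntl* (31.4%), and after thinning these became 5.58, 4.54 and 3.60%. *Nr1d1* was found in 0.431% of thinned neurons (0.324 to 0.562%), against 4.59% (3.25 to 6.27%) of mural cells. *Per2* was at 0.103% (0.00261 to 0.574%) in Tmem119.Immune cells, 1 of 969 nuclei, and at 3.77% (3.22 to 4.38%) in astrocytes.

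Within neurons the authors' clusters were not alike. The 122 clusters with at least 40 nuclei, of 134 that hold neurons, had a median of 43.6 CPM for *Arntl*, with a range from 20.4 to 122 CPM. The highest cluster, number 111 with 87 nuclei and 88 *Arntl* UMIs (exact Poisson interval 98.0 to 151 CPM), read 124 and 152 CPM in the control and 126 and 100 CPM in the AgRP-Gq;POMC-Gi libraries. All 4 libraries thus placed it above the neuron level of 43.9 CPM. *Npas2* ranged from 0 to 67.2 CPM with a median of 16.8 CPM, and its highest cluster, number 58 with 147 nuclei, read 62.0, 77.5, 62.7 and 68.5 CPM in the 4 libraries. *Per3* ranged from 4.70 to 72.4 CPM with a median of 23.8 CPM. For *Nr1d1*, 6 clusters had no UMI and the highest, at 19.6 CPM, rested on 7 UMIs. These clusters were picked as the highest of 122, so that their levels are descriptions.

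**Figure D2:**
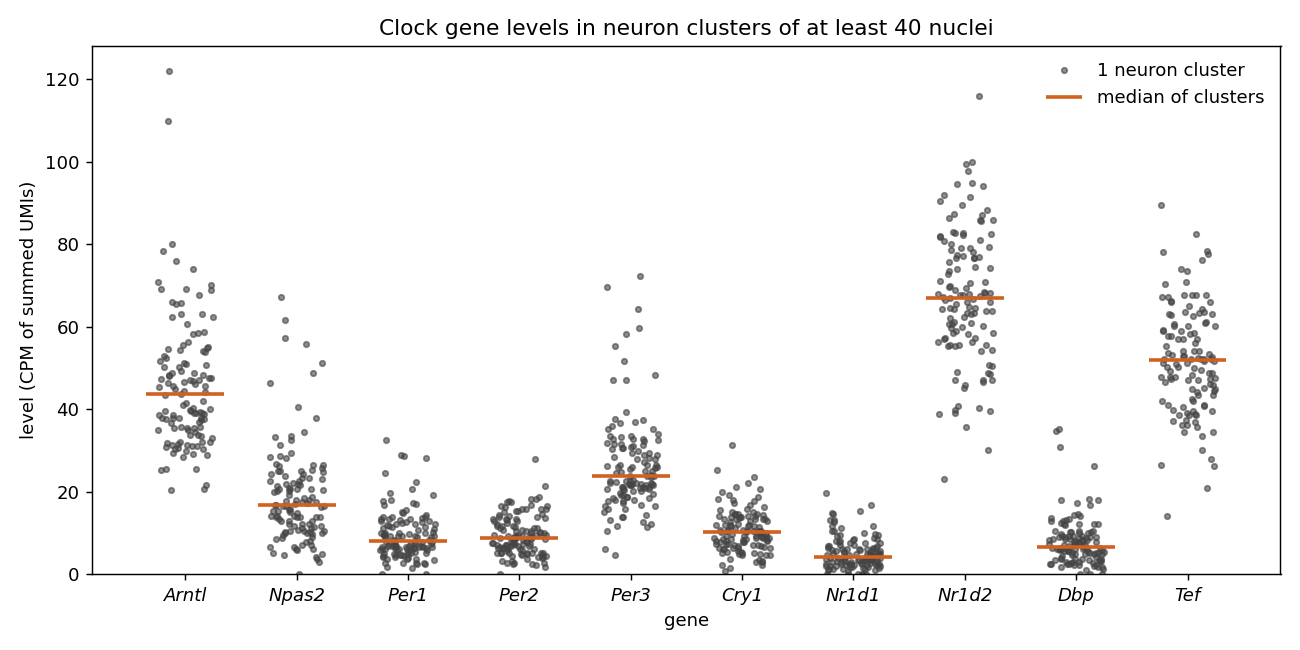
Level of each clock gene (y axis, CPM of UMIs summed over the 4 libraries) in the 122 neuron clusters with at least 40 nuclei; each point is 1 cluster and the orange bar is the median of clusters. *Arntl* reaches 122 CPM in 1 cluster against a median of 43.6 CPM, and *Npas2* 67.2 CPM against a median of 16.8 CPM.

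Astrocytes and oligodendrocytes had fewer clusters, and the ranges over them are not compared with those over 122 neuron clusters, which widen with the number of clusters and with few UMIs in each. Over 11 astrocyte clusters *Npas2* lay between 261 and 508 CPM. *Nr1d1* lay between 25.7 and 54.5 CPM and *Dbp* between 20.2 and 48.9 CPM in them. Over 13 oligodendrocyte clusters *Tef* lay between 54.3 and 88.1 CPM and *Nr1d2* between 43.0 and 55.2 CPM. *Per3* in oligodendrocytes had a median of 8.58 CPM and was at 69.4 CPM in cluster number 26 (266 nuclei, 100 UMIs). Its libraries there read 91.7 and 67.2 CPM in control and 71.9 and 24.3 CPM in AgRP-Gq;POMC-Gi mice. The same cluster was the highest for *Dbp* (18 UMIs) and *Arntl* (59 UMIs). It was picked as the highest of 13, so that these levels are descriptions.

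Likeness of pattern was measured as Pearson's r of log2(CPM + 1) over 40 sums, 4 libraries by 10 types, among 13086 genes with at least 20 CPM in 1 of the types. These points share libraries and types, and r is a description. *Npas2* was most like *Fam20a* (r = 0.91), followed by *Sh3pxd2b* (0.87). *Nr1d1* was most like *Plod2* (0.90), *Eps8* and *Yap1* (both 0.89), and *Dbp* most like *Six5* (0.88), followed by *Nr1d1* itself (0.86) and *Lhfp* (0.82). *Per2* was most like *Sox5* and *Plce1* (both 0.87) and *Gstt1* (0.86). *Per3* was most like *Gm11266* (0.86), *Boc* and *Per2* (both 0.84). *Per1*, by contrast, was most like *Aff1* (0.82), *Hist1h1c* (0.76) and *Kremen1* (0.75). *Nr1d2* was closest to *Colec12* (0.82), *Cyp7b1* (0.78) and *Ddr2* (0.77), and *Tef* to *Cox6b2* (0.78), *Col1a2* and *Lrp4* (both 0.70). *Cry1* was closest to *Gm42836* (0.77), *Acss3* and *Rfx2* (both 0.74), and *Arntl* had the weakest neighbours, *Arhgef18* (0.68), *Wnt5a* (0.67) and *Ier5* (0.65). Among the listed genes themselves r was 0.86 for *Dbp* with *Nr1d1* and 0.84 for *Per2* with *Per3*, and -0.09 for *Tef* with *Arntl*.

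The change between groups was tested in each type on UMIs summed per library, for genes detected in 5% or more of its nuclei. Of 130 pairs of gene and type, 90 passed this filter: *Per1* and *Nr1d2* in all 13 types, *Arntl* and *Tef* in 12, *Per2* and *Per3* in 9, *Dbp* in 8, *Nr1d1* and *Npas2* in 5 and *Cry1* in 4. None of the 90 was called by edgeR. An unadjusted p below 0.05 was found for 16 of the 90, a larger share than the 5.69% (5750 of 101074) of all genes and types together. DESeq2 also called none, with 5 of the 90 below 0.05, and its share over all genes is not given here. The pairs of a type come from the same 4 libraries and are not independent of each other. The genes were also chosen with earlier results of these data known. The larger share of small p is thus a description and no support for a change. Over all genes tested, the share called by edgeR was 0.626% in astrocytes, 0.437% in mural cells, 0.136% in Ms4a4b.Immune, 0.0444% in OPC and 0.0154% in F13a1.Immune cells, and 0% in the other 8 types. The smallest adjusted p of the 90 was 0.179. A fold change is given as AgRP-Gq;POMC-Gi over control on the log2 scale with a standard error (SE). This error is the absolute fold change divided by the square root of the F of the edgeR test.

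**Figure D3:**
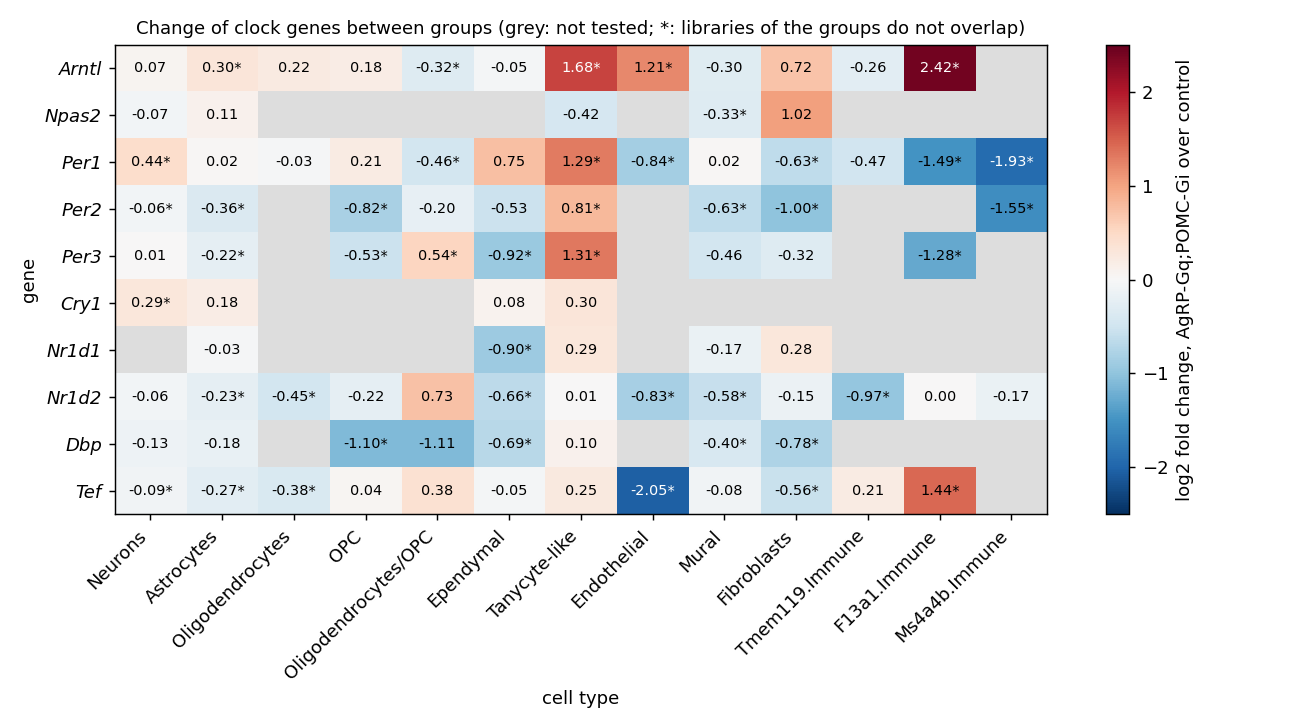
Log2 fold change of each clock gene (rows) in each cell type (columns), AgRP-Gq;POMC-Gi over control; red is higher, blue is lower, grey was not tested, and an asterisk marks pairs whose 2 libraries of one group lie wholly above or below those of the other. No pair passed the adjusted threshold, and 55 of the 90 values lie below 0.

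The direction of the differences varied with the gene. The log2 fold change was below 0 in 10 of 13 types for *Nr1d2* (median -0.22), 8 of 9 for *Per2* (median -0.53), 7 of 8 for *Dbp* (median -0.55) and 6 of 9 for *Per3* (median -0.32). It was above 0 in 8 of 12 types for *Arntl* (median 0.20) and in all 4 types tested for *Cry1* (median 0.24, from 0.08 to 0.30). *Per1* was above 0 in 6 of 13 types, *Tef* in 5 of 12, and *Nr1d1* and *Npas2* in 2 of 5 each. Over all genes tested, the median lay between -0.05 and 0.04 in every type. The types share the same 4 libraries, so that these counts are no independent repeats.

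The count of genes whose libraries did not overlap between groups is read against the share of all genes tested in the type. In neurons 2 of 9 genes were higher in both AgRP-Gq;POMC-Gi libraries (all genes: 10.4%) and 2 lower (27.7%). In astrocytes 1 of 10 was higher (15.2%) and 4 lower (22.2%), and in oligodendrocytes 0 of 4 were higher (14.1%) and 2 lower (23.3%). OPC had 0 of 7 higher (14.5%) and 3 lower (20.3%), and Oligodendrocytes/OPC had 1 of 7 higher (12.6%) and 2 lower (15.4%). Ependymal cells had 0 of 9 higher (13.7%) and 4 lower (18.3%), whereas Tanycyte-like cells had 4 of 10 higher (13.5%) and 0 lower (21.9%). In the vascular types, 1 of 4 was higher (18.2%) and 3 lower (17.3%) in endothelial cells, 0 of 9 higher (15.9%) and 4 lower (20.3%) in mural cells, and 0 of 9 higher (15.1%) and 4 lower (17.1%) in fibroblasts. In the immune types, Tmem119.Immune cells had 0 of 4 higher (17.0%) and 1 lower (18.5%), F13a1.Immune cells 2 of 5 higher (14.2%) and 2 lower (17.8%), and Ms4a4b.Immune cells 0 of 3 higher (20.1%) and 2 lower (17.2%). With so few genes in a type, these counts describe the libraries and are not tested.

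The 3 pairs with the smallest p in each family of types are described next with all their values, and none passed the threshold in the fit above. Fits blocked on replicate number, for which pairing is not established, are given with their calls in the last section. In the neural family, *Nr1d2* in oligodendrocytes read 54.4 and 57.2 CPM in control and 36.5 and 42.2 CPM in AgRP-Gq;POMC-Gi mice. The groups did not overlap, and the log2 fold change was -0.45 ± 0.10 (SE; edgeR adjusted p = 0.179), or -0.47 without AgRP-Gq;POMC-Gi replicate 2. *Per2* in OPC read 55.8 and 56.6 CPM against 33.1 and 28.6 CPM. Both AgRP-Gq;POMC-Gi libraries were lower, with a log2 fold change of -0.82 ± 0.28 (edgeR adjusted p = 0.549), or -0.66 without replicate 2 of that group. *Per2* in astrocytes read 51.1 and 51.9 CPM against 36.4 and 41.6 CPM, a log2 fold change of -0.36 ± 0.13 (edgeR adjusted p = 0.349), or -0.36 without replicate 2. Median depth was lower in the AgRP-Gq;POMC-Gi libraries for astrocytes (3010.5 and 3202 against 4008 and 3395 UMIs) and oligodendrocytes (2202.5 and 2345 against 2713 and 2542), and overlapped between groups for OPC (3170 and 3736 against 4662.5 and 3615). After thinning to 800 UMIs per nucleus the log2 fold change was 0.01 for *Per2* in astrocytes, -0.34 for *Per2* in OPC and -0.40 for *Nr1d2* in oligodendrocytes.

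In the ventricular family, all 3 pairs were in Tanycyte-like cells, which had 26 nuclei in each control library and 67 and 83 in the others. *Arntl* read 30.7 and 25.0 CPM in control and 82.6 and 79.7 CPM in AgRP-Gq;POMC-Gi mice, from 48 UMIs in all. Control libraries held 3 and 2 of these UMIs. The groups lay apart, with a log2 fold change of 1.68 ± 0.67 (edgeR adjusted p = 0.764), or 1.85 without AgRP-Gq;POMC-Gi replicate 2. It was 1.35 when every library was weighted to the same share of each cluster. *Per1* there read 51.2 and 25.0 against 121 and 52.1 CPM, and the higher control and the lower AgRP-Gq;POMC-Gi library almost met. For *Per1* the control libraries held 5 and 2 UMIs. Its log2 fold change of 1.29 ± 0.68 (edgeR adjusted p = 0.846) was 1.93 without replicate 2 and 0.46 without replicate 1 of the AgRP-Gq;POMC-Gi group. *Per3* read 20.5 and 37.5 against 58.3 and 67.5 CPM, a log2 fold change of 1.31 ± 0.70 (edgeR adjusted p = 0.850), or 1.34 without replicate 2. Here the control libraries held 2 and 3 UMIs. *Npas2*, the other activator gene, was at -0.42 in these cells, and *Nr1d2* at 0.01. On nuclei thinned to 800 UMIs, where few molecules of these genes are left, the values were 1.57 for *Arntl*, 2.72 for *Per1* and 4.46 for *Per3*.

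**Figure D4:**
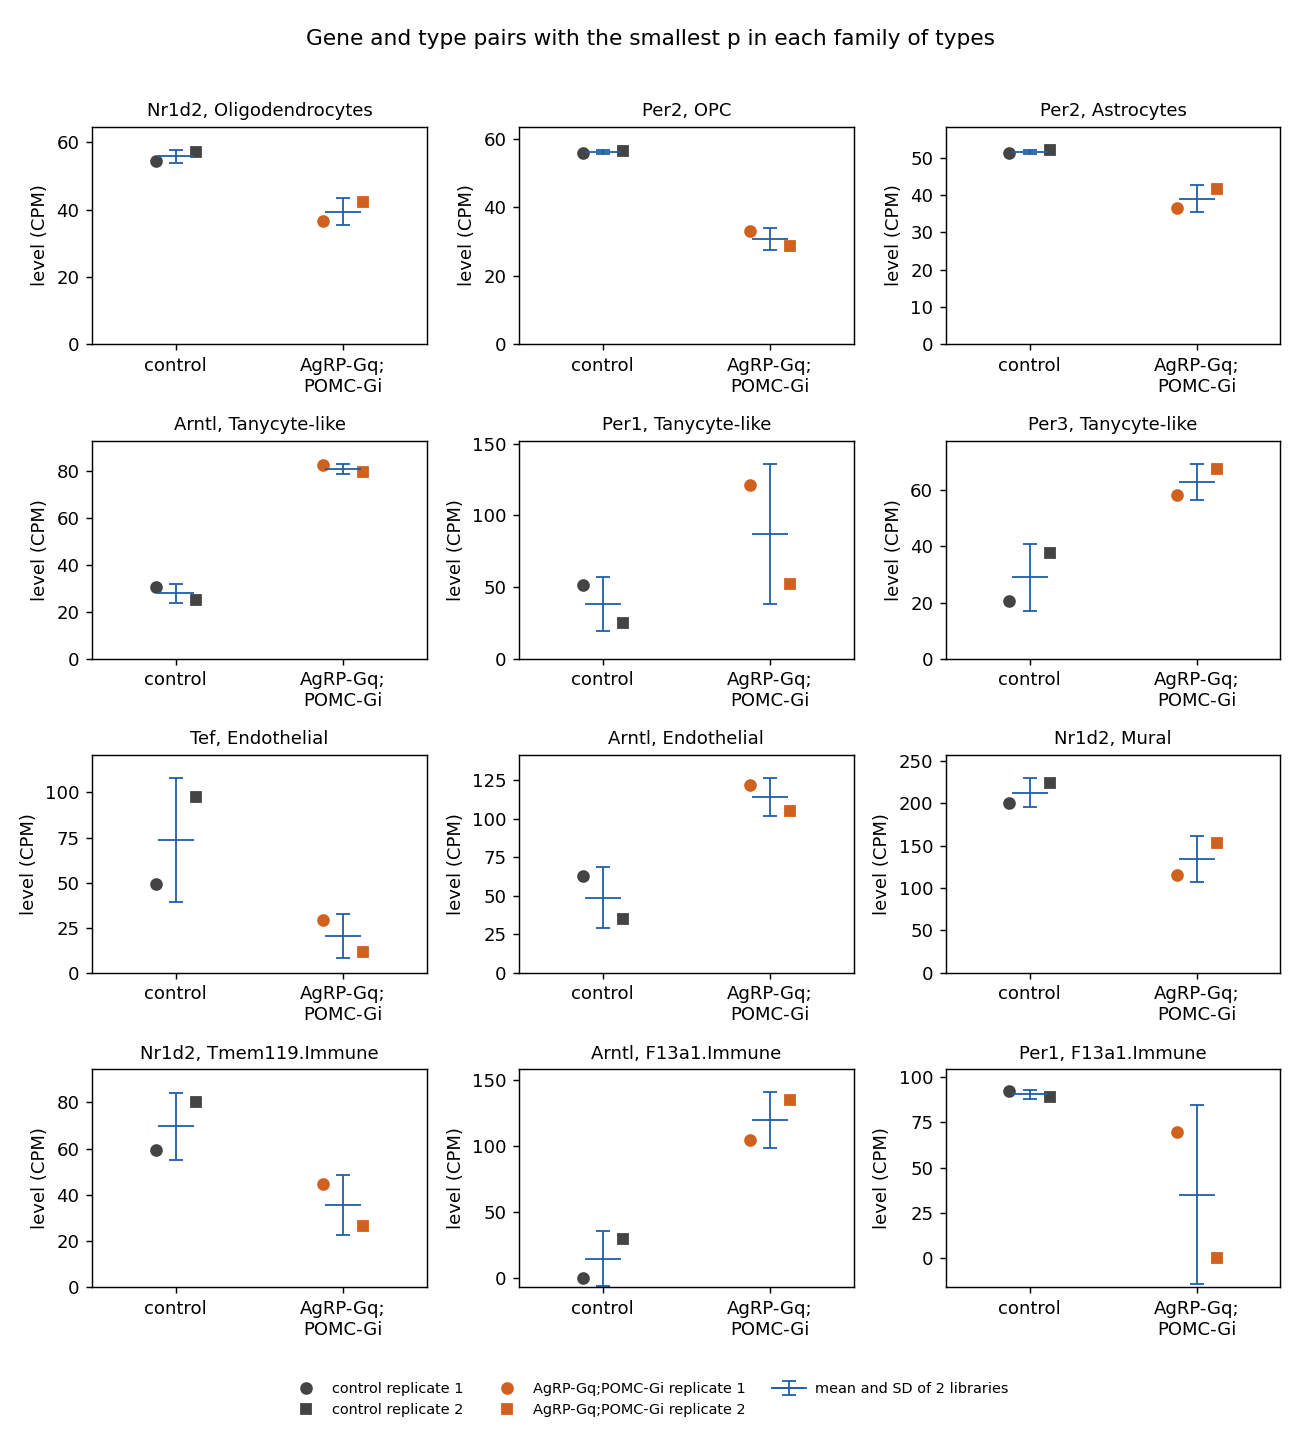
Level in CPM (y axis, linear) of the 3 gene and type pairs with the smallest p in each family, from the top row neural, ventricular, vascular and immune; each point is 1 library, and the blue bars are the mean and SD of the 2 libraries of a group. The groups lie apart in all 12 pairs, which were picked for small p, and none passed the adjusted threshold. Error bars run below 0 in both F13a1.Immune pairs, where 1 library of the group had no UMI.

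In the vascular family, *Tef* in endothelial cells read 49.1 and 97.7 CPM in control and 29.1 and 11.7 CPM in AgRP-Gq;POMC-Gi mice. The groups did not overlap, and the value rests on 69 UMIs. Control libraries held 18 and 42 of these UMIs and AgRP-Gq;POMC-Gi libraries 5 and 4. The log2 fold change was -2.05 ± 0.55 (edgeR adjusted p = 0.341), or -1.32 without AgRP-Gq;POMC-Gi replicate 2 and -2.45 without control replicate 1. This pair passed the threshold with no filter on genes. It did not pass with DESeq2, the filter of filterByExpr, library size alone or thinned nuclei. *Arntl* in the same cells went the other way, with 62.7 and 34.9 against 122 and 105 CPM. Its log2 fold change was 1.21 ± 0.36 (edgeR adjusted p = 0.406), or 1.37 without replicate 2. *Nr1d2* in mural cells read 200 and 224 CPM against 115 and 153 CPM, a log2 fold change of -0.58 ± 0.26 (edgeR adjusted p = 0.634), or -0.79 without replicate 2. Median depth was lower in the AgRP-Gq;POMC-Gi libraries for endothelial cells (1371 and 1364 against 1536 and 1512.5 UMIs) and mural cells (1280 and 1395 against 1723 and 1560). On thinned nuclei the values were -2.94 for *Tef*, 1.25 for *Arntl* and -0.58 for *Nr1d2*.

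In the immune family, *Nr1d2* in Tmem119.Immune cells read 59.5 and 80.0 CPM in control and 44.8 and 26.3 CPM in AgRP-Gq;POMC-Gi mice. Both libraries of the second group were lower, with a log2 fold change of -0.97 ± 0.35 (edgeR adjusted p = 0.819), or -0.58 without replicate 2. *Arntl* in F13a1.Immune cells read 0 and 29.7 against 105 and 135 CPM, from 10 UMIs, and its log2 fold change of 2.42 ± 1.17 (edgeR adjusted p = 0.998) was 2.20 without AgRP-Gq;POMC-Gi replicate 2 and 5.06 without control replicate 2, where the control is at 0 and the value depends on the prior count. *Per1* in these cells read 92.5 and 89.0 against 69.9 and 0 CPM, from 11 UMIs. Its log2 fold change of -1.49 ± 1.19 (edgeR adjusted p = 0.998) was -0.39 without AgRP-Gq;POMC-Gi replicate 2 and -5.09 without replicate 1, where that group is at 0 and the value again depends on the prior count. On thinned nuclei the values were -1.18, 3.34 and -0.52 in the same order. Median depth of Tmem119.Immune cells was 1695 and 1853 UMIs in AgRP-Gq;POMC-Gi libraries against 2032 and 1869.5 in control. The pairs in F13a1.Immune cells thus rest on 10 and 11 UMIs, and *Nr1d2* in Tmem119.Immune cells on 104 UMIs. Each of these pairs kept its sign whichever library was left out. They were picked for small p with groups that lie apart, so that this is no support.

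Whether the change between groups differed between types was tested in 1 fit over the 10 types with at least 20 nuclei per library. None of the 10 genes was called, with 5 at an unadjusted p below 0.05 (edgeR quasi-likelihood F test). Of all 14604 genes tested 0.226% were called, and 7.37% had an unadjusted p below 0.05. Since the 10 genes were chosen with earlier results of these data known, their share beside this is a description. The smallest adjusted p-values were 0.440 for *Per2*, 0.503 for *Tef*, 0.527 for *Per1*, 0.582 for *Npas2* and 0.588 for *Arntl*. A difference of the change between types was thus not detected, which does not show that the types changed alike.

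Of 14 other clock genes (*Clock*, *Cry2*, *Rora*, *Rorb*, *Hlf*, *Nfil3*, *Bhlhe40*, *Bhlhe41*, *Ciart*, *Arntl2*, *Csnk1d*, *Csnk1e*, *Fbxl21* and *Usp2*), 13 could be tested in at least 1 type, in 100 pairs. None was called by edgeR, with 11 pairs at an unadjusted p below 0.05. The log2 fold change was above 0 in 46 pairs and below 0 in 54, with a median of -0.02, beside 35 and 55 pairs and a median of -0.14 for the 10 genes. The smallest adjusted p among them was 0.105, and none was called in the fit across types.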

How the data were processed

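Nuclei from 4 hindbrain libraries, 2 per group, were profiled by 10x Genomics single-nucleus RNA sequencing. Per the labels the authors used Cell Ranger 7.0.0 and Seurat 4.3.0 with GRCm38 (mm10). Read alignment options, strand and intron use are not given in the sources used here. The deposited matrices hold UMI counts per gene and nucleus, not normalized. The authors' nuclei table gives total counts, the percent of mitochondrial UMIs, the quality call, clusters and cell types, which were used as deposited. Its activity scores from the authors' own comparison and the aggregated matrix were not used. The authors removed nuclei with few UMIs or genes or a high mitochondrial share and detected doublets, and doublets were not called again.

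The genes, other clock genes and markers were chosen with earlier results of these data known, and some items are not reported here. Counts of kept nuclei were summed per library and type, and CPM were computed from these sums. Groups were compared per type with edgeR 4.0.16 (TMM, quasi-likelihood, Benjamini-Hochberg, threshold 0.05) where every library had at least 5 nuclei, for genes detected in 5% or more of its nuclei. One fit with a library block tested the group by type terms. DESeq2 1.42.0, other filters and scaling, thinning to 800 UMIs, weighting each library to the same cluster shares and leaving out libraries were alternatives. Scripts were tested on simulated counts. All genes of the list were named, with full values for the 3 pairs of smallest p per family and any called. Levels across types and shares were described without a test. No per-sample column was left unmapped. Same-numbered libraries were not treated as pairs, because the labels give no shared animal or batch.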

Additional observations from a re-analysis of the deposited data

How the results depend on the processing

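The count of calls among pairs of clock gene and type, 0 as reported, was also 0 with library size in place of TMM, DESeq2, filterByExpr and thinned nuclei. It was 2 with no filter on genes (*Tef* in endothelial cells and *Per2* in oligodendrocytes). *Per2* in oligodendrocytes, found in 1.21% of nuclei and so not tested with the filter, read 6.83 and 5.70 CPM in control and 2.84 and 2.26 CPM in AgRP-Gq;POMC-Gi mice. In a fit blocked on replicate number the count was 2 (*Tef* in endothelial cells and *Nr1d2* in oligodendrocytes), and with the crossed pairing, a block chosen after seeing the data, it was 1. Leaving out 1 library gave 0 to 1, the 1 being *Tef* in endothelial cells without control replicate 1. Same-numbered libraries deviated together (r over 0.1) in 4 of 13 types, the 3 largest among them (0.18 to 0.34), and apart (r under -0.1) in 3. Choroid plexus nuclei numbered 436 and 329 in the replicate 2 libraries and 2 and 6 in the others. With 2 pairs and no label that ties them, pairing is not established. *Tef* in endothelial cells was at -2.09 with no filter, -2.08 with the block and -1.87 with the crossed block, and *Per2* in astrocytes turned to 0.01 after thinning. The cause was not tested. The fit across types called 0 of the 10 genes in every alternative. The highest type of a gene stayed the same for 8 of 10 genes with mean log-normalized values, 7 after thinning, and 7 to 8 without 1 library. The type with the highest share of nuclei stayed the same for 4 of 10 genes at full depth. Few nuclei limit the Tanycyte-like, ependymal, F13a1.Immune, Ms4a4b.Immune and Oligodendrocytes/OPC values.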
